A study of Arabidopsis thaliana with 34 samples.

Results

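ARGAH1 (AT4G08900) and ARGAH2 (AT4G08870) are the arginase genes of Arabidopsis thaliana, 2 of the 33321 loci in the deposited count table. Both were chosen by name with their values in this series known, so their levels and differences are given here as descriptions, without a test. Arginase, an enzyme of plant mitochondria, splits arginine into ornithine and urea. Urease then releases ammonia from the urea, and ornithine can pass to proline and glutamate through ornithine aminotransferase. Arginine is also the start of polyamine synthesis in Arabidopsis, through arginine decarboxylase, so arginase competes with that route for substrate. Transcripts of ARGAH2 are known to accumulate after methyl jasmonate, a wound and defence hormone, in Arabidopsis.

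The series counted mRNA in the aerial tissue of seedlings grown on agar for 15 days, each sample a pool of 5 to 15 seedlings, and is about hormone-regulated defence and stress networks in F1 hybrids. Its 9 genotypes are the F1 hybrids C24xLer, LerxC24, C24xCol, ColxC24, ColxLer and LerxCol and their inbred parents C24, Col and Ler. Which parent of a cross was the mother is not stated in the labels, and no treatment is named for any group. Values here come from 28 of 34 libraries: 4 each of C24xLer and LerxC24, 2 each of C24xCol, ColxC24, ColxLer, LerxCol and Col, 6 of C24 and 4 of Ler. Replicates carry letters in the labels, and letters A and B exist in every genotype. A pair of LerxC24 libraries, called U1 and U2, are headed D and E in the counts. The titles of LerxC24 carry A, B, C, F and G, so the pair was treated as without a letter. Levels are CPM, in which edgeR's TMM method scales each library's total.

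Some libraries stood apart. The 28 libraries held 36324848 to 88686247 counts. The 4 libraries with the letter C (1 each of C24xLer, LerxC24, C24 and Ler) held 13198638 to 20435372 counts, with 11393 to 11692 loci at 0 against 2066 to 2742 in all others, and their summed root markers were 828 to 1031.5 CPM against 41.1 to 215 CPM elsewhere. Over 18 genes that C24 and Col express and Ler hardly does, Ler D stood at a median of 47.8% and Ler E at 30.8% of the level in C24 and Col, where no other Ler library was above 0.779%. These 6 libraries are left out below, and their arginase values are given separately. All 4 leaf and shoot markers were above 1 CPM in every one of the 28 libraries, summing to 23134 to 39505 CPM. In bulk tissue, fewer cells that make a transcript and less transcript per cell cannot be told apart.

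Both genes lie on chromosome 4, and NCBI's TAIR10.1 annotation gives their positions. ARGAH1 spans chr4:5703311-5705439 on the plus strand, with 6 exons and 1029 coding bases. ARGAH2 spans chr4:5646395-5648868 on the minus strand, with a transcript of 6 exons and 1035 coding bases and a shorter one of 5 exons and 792 coding bases. The genes are 54442 bases apart with 19 annotated loci between them, and neither overlaps another annotated gene. The coding sequences of the longer transcripts were identical at 897 of 1026 aligned positions (87.4%). A read that lies wholly within a shared run cannot be given to 1 gene, so the longest run of identical coding bases is shown, 59 bases that start at position 682 of the ARGAH1 and position 688 of the ARGAH2 coding sequence.
Shared coding run of ARGAH1 and ARGAH2: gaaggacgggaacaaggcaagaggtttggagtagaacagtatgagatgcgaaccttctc
Of 980 words of 50 bases in the ARGAH1 coding sequence, 11 also occurred in that of ARGAH2. The 250 bases before each annotated start are shown because the genes differed so much in how they varied between genotypes. Both are from TAIR10.1, whose accession is Col, read in the direction of each gene and printed without capitals because no searched motif was found.
ARGAH2 promoter, chr4:5648869-5649118, minus strand: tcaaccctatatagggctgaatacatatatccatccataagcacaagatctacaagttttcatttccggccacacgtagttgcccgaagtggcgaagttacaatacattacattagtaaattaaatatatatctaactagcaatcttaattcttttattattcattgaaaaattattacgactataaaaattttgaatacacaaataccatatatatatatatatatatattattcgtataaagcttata
ARGAH1 promoter, chr4:5703061-5703310, plus strand: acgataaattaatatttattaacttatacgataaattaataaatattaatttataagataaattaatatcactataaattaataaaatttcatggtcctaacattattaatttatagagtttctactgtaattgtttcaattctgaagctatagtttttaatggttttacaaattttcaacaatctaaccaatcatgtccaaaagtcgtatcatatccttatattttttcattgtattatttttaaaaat
The letters CACGTG, then GCCGCC, then TTGAC were searched on both strands and were in neither window. They occurred in 6.49%, 1.87% and 44.9% of 27443 windows of the same length before protein-coding genes. A and T made up 73.2% of the ARGAH2 window and 81.6% of the ARGAH1 window, against a median of 68.8% over all windows.

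ARGAH2 was nearly absent from C24 and was at or above 3.19 CPM in every library of the other genotypes. In C24 it had 0.557, 0.265, 0.147, 0.0740, 0.172 and 0.155 CPM in libraries A, B, D, E, F and G. These levels rest on 40, 20, 13, 7, 10 and 8 counts. In Ler it had 252, 196, 13.6 and 37.8 CPM in libraries A, B, F and G, and in Col 102 and 81.8 CPM in A and B. No C24 library reached a level found in Col or Ler, and the lowest Ler library was still above the highest C24 library. C24 minus Ler was -9.10 ± 1.21 (log2 change ± SE, 6 and 4 libraries), and C24 minus Col was -7.80 ± 0.46 (2 libraries each). Without C24 A, whose count was the highest in that accession, C24 minus Col was -8.43. Col minus Ler was -1.29 ± 0.33 in letters A and B, where both Ler libraries lay above both Col libraries.

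The C24 counts of ARGAH2 equalled 0.506% to 2.8% of the ARGAH1 counts in the same libraries. Whether they are ARGAH1 reads placed on ARGAH2 was not tested. Reads were counted on the TAIR10 genome per the submitters' processing notes, and reads of an allele that differs from it in sequence or copy number can be lost. A low transcript level and lost reads in C24 cannot be told apart in these counts.

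ARGAH1 varied little between genotypes. In C24 it had 19.9, 19.0, 17.3, 14.6, 13.1 and 14.3 CPM in libraries A, B, D, E, F and G. In Ler it had 23.5, 21.2, 14.0 and 12.5 CPM in A, B, F and G, and in Col 21.0 and 20.2 CPM. The ranges of C24 and Ler overlap. C24 minus Ler was -0.13 ± 0.20, C24 minus Col -0.08 ± 0.13 and Col minus Ler -0.12 ± 0.13 (log2 change ± SE). C24 minus Ler was 0.034 without Ler A, and Col minus Ler was 0.21 with all 28 libraries in one fit. Over all 28 libraries ARGAH1 lay between 12.2 and 23.9 CPM, while ARGAH2 lay between 0.0740 and 252 CPM.

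**Figure D1:**
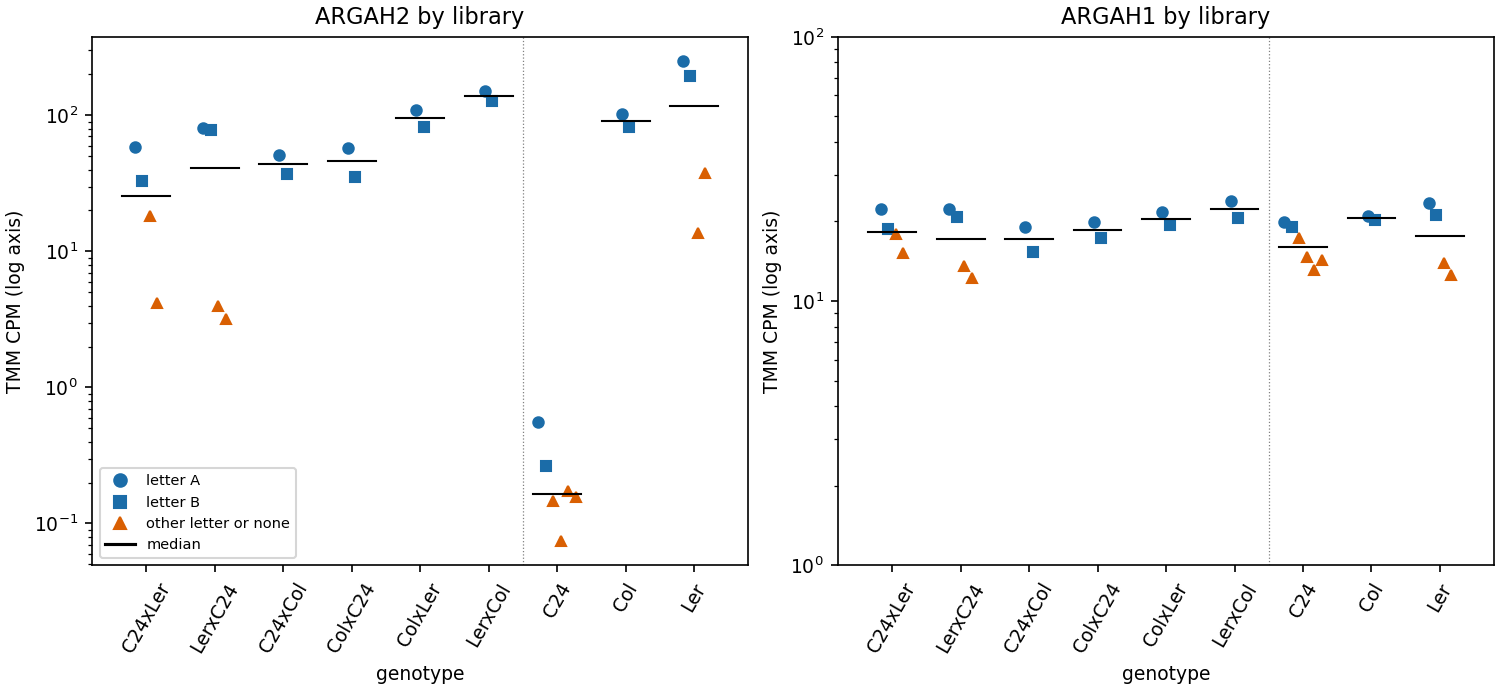
Level of ARGAH2 (left) and ARGAH1 (right) in each of 28 libraries, as TMM CPM on log axes, by genotype with the hybrids left of the dotted line and the parents right of it. Symbols give the replicate letter and the bar is the median of the libraries shown. ARGAH2 stays below 0.56 CPM in all 6 C24 libraries and at or above 3.19 CPM in all others, and ARGAH1 stays between 12.2 and 23.9 CPM throughout.

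The hybrids with a C24 parent all carried ARGAH2 well above C24. C24xLer had 58.5, 32.8, 18.1 and 4.21 CPM in A, B, D and E, and LerxC24 had 81.1, 77.5, 3.96 and 3.19 CPM in A, B, U1 and U2. C24xCol had 50.9 and 37.0 CPM in A and B, and ColxC24 had 57.6 and 35.5 CPM. Without a C24 parent, ColxLer had 109.8 and 81.6 CPM and LerxCol had 152 and 128 CPM. LerxCol was the highest hybrid, and its libraries lay above both libraries of Col and below both of Ler in the same letters.

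Letters A and B allow all 9 genotypes to be ordered on the same footing. Mean ARGAH2 levels were 224 ± 39.8 CPM in Ler, 140 ± 16.9 CPM in LerxCol, 95.7 ± 19.9 CPM in ColxLer and 91.7 ± 14.1 CPM in Col (SD, n = 2 each). They were 79.3 ± 2.60 CPM in LerxC24, 46.5 ± 15.6 CPM in ColxC24, 45.6 ± 18.2 CPM in C24xLer, 44.0 ± 9.85 CPM in C24xCol and 0.411 ± 0.207 CPM in C24 (SD, n = 2 each). ColxLer and Col overlapped, and so did ColxC24, C24xLer and C24xCol among themselves. Every other step in this order was without overlap between neighbours, with only 2 libraries on each side. For ARGAH1 the same means ran from 17.2 CPM in C24xCol to 22.4 CPM in Ler.

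Per kilobase of exon, the share of the arginase pair contributed by ARGAH2 also differed between genotypes. The union of exons was 1989 bases for ARGAH2 and 1476 bases for ARGAH1. ARGAH2 made up 0.374% to 2.04% of the pair's CPM per kilobase in C24. In Ler it made up 88.8% and 87.2% in A and B but 42.0% in F and 69.1% in G. It made up 78.2% and 75.0% in Col. In the hybrids of C24 with Col this share was 60.4% to 68.3%, and in ColxLer and LerxCol it was 75.8% to 82.5%. In LerxC24 it was 72.9% and 73.4% in A and B and 17.8% and 16.2% in U1 and U2, so ARGAH1 was the more abundant transcript per length in U1 and U2 and ARGAH2 in A and B.

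Each hybrid was then set against the mean of its parents' CPM in the same letter. The crosses of C24 with Col lay close to that mean. ARGAH2 reached 99.6% of it in C24xCol A, 90.2% in C24xCol B, 113% in ColxC24 A and 86.6% in ColxC24 B. In letters A and B the crosses of C24 with Ler lay lower, at 46.3% and 33.4% in C24xLer A and B and 64.2% and 79.0% in LerxC24 A and B. In letter C, otherwise left out, they were at 96.9% and 86.4%. ColxLer reached 62.1% and 58.8%, and LerxCol 85.9% and 92.2%. ARGAH1 was between 76.0% and 107% of the same mean in all crosses, letter C included.

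The choice of mid-parent decides how ARGAH2 looks in the crosses with C24. Against a mid-parent taken as the mean of log2 levels, the C24/Ler hybrids were 2.68 ± 0.74 higher and the C24/Col hybrids 2.89 ± 0.27 higher (log2 ± SE). With the arithmetic mean of the parental CPM in its place, they were at -0.84 for C24/Ler and -0.026 for C24/Col. A parent near 0 pulls the log mean far below the arithmetic mean. For the Col/Ler hybrids, whose parents both express the gene, hybrid minus log-scale mid-parent was -0.31 ± 0.23, and 0.11 with all 28 libraries in one fit.

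Set against the higher parent alone, ARGAH2 reached 23.2% and 16.7% of Ler in C24xLer A and B and 32.2% and 39.6% of Ler in LerxC24 A and B. In C24xCol it was 50.1% and 45.3% of Col, and in ColxC24 56.6% and 43.5% of Col. The counts do not separate the parental alleles, so the share that each allele contributed was not measured.

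Reciprocal crosses differed by less than 1 log2 unit in the fits given next, with an SE of up to 0.99. ARGAH2 was -0.54 ± 0.99 in C24xLer minus LerxC24, -0.09 ± 0.33 in C24xCol minus ColxC24 and -0.55 ± 0.33 in ColxLer minus LerxCol (log2 ± SE). In letters A and B both C24xLer libraries lay below both LerxC24 libraries, and both ColxLer libraries below both LerxCol libraries, while C24xCol and ColxC24 overlapped. ARGAH1 was 0.10 ± 0.22, -0.11 ± 0.13 and -0.12 ± 0.13 in the same order of crosses. Signs and sizes depended on single libraries. ARGAH2 in C24xLer minus LerxC24 ran from -1.17 to 0.0059 over fits that left out 1 library, the highest without LerxC24 A. In C24xCol minus ColxC24 it was 0.30 without ColxC24 A.

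**Figure D2:**
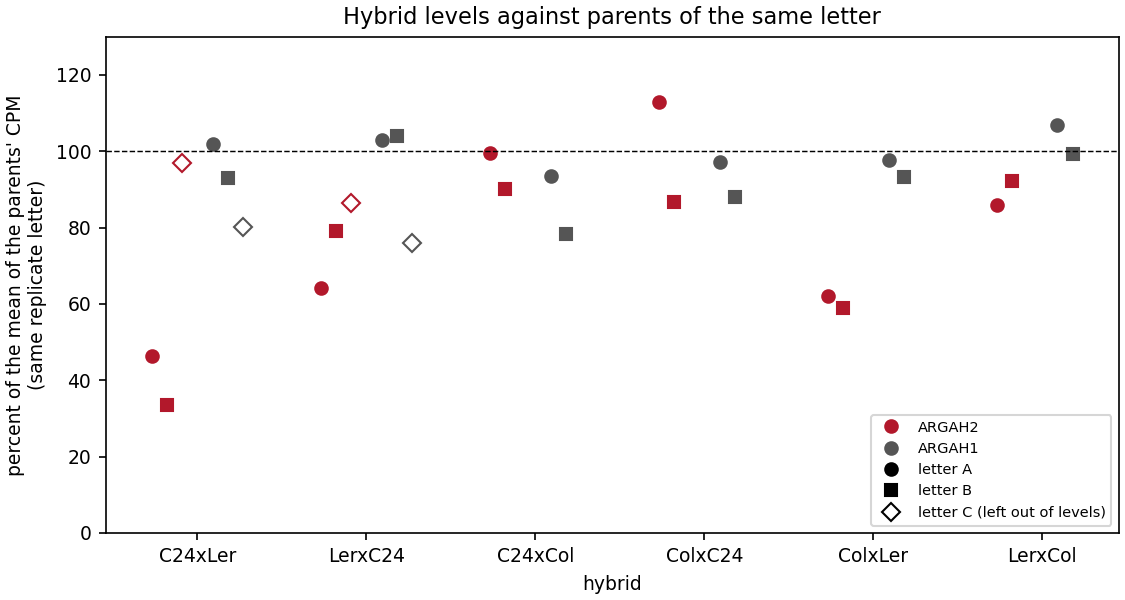
Level of ARGAH2 (red) and ARGAH1 (grey) in each hybrid library as a percent of the mean of the parents' CPM in libraries of the same letter, with 100% dashed. Filled circles and squares are letters A and B, and open diamonds are the libraries lettered C that are left out elsewhere. ARGAH2 in C24xLer A and B (46.3% and 33.4%) lies lowest, and the crosses of C24 with Col lie at 86.6% to 113%.

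ARGAH2 also differed within genotypes, between replicate letters. In Ler the mean of A and B was 8.71 times that of F and G. In LerxC24 the mean of A and B was 22.2 times that of U1 and U2. In C24xLer the ratio of A and B to D and E was 4.09, and in C24 the ratio of A and B to the other 4 libraries was 3.0. A and B were the 2 highest libraries in each of these 4 genotypes. ARGAH1 moved the same way by less, with ratios of 1.24 in C24xLer, 1.68 in LerxC24, 1.31 in C24 and 1.69 in Ler. The labels do not say what a letter stands for, and the cause of these differences was not tested.

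Jasmonate genes moved with the letters in part. VSP2, a vegetative storage protein gene that jasmonate induces, had 296, 195, 13.8 and 20.9 CPM in Ler A, B, F and G, and 213, 164, 5.27 and 2.94 CPM in LerxC24 A, B, U1 and U2. In C24 it had 308, 346, 378, 83.0, 7.97 and 10.8 CPM in A, B, D, E, F and G. LOX2, a chloroplast lipoxygenase that feeds jasmonate synthesis, had 1980, 1173, 360 and 460 CPM in the same Ler libraries. VSP2 and ARGAH2 were thus both high in Ler A and B and low in Ler F and G. ARGAH2 was near 0 in every C24 library, so C24 cannot show whether it follows VSP2. In C24xLer VSP2 had 135, 81.1, 124 and 11.1 CPM in A, B, D and E. There VSP2 was higher in D than in B, while ARGAH2 was lower in D (18.1 CPM) than in B (32.8 CPM). Over a list of 23 genes of jasmonate synthesis, signalling and response, the median log2 ratio of A and B to the others was 0.50 in C24xLer, 0.28 in LerxC24, 1.13 in C24 and 0.07 in Ler, where the median of all genes was between -0.0035 and 0.0013. Over 17 genes of polyamine metabolism the same median was 0.08, 0.31, 0.11 and 0.50 in that order, above the jasmonate list in LerxC24 and Ler. Lists of arginine synthesis, arginine and urea breakdown and proline genes lay between -0.17 and 0.26. A shift with the letters was thus not particular to the jasmonate list. The part of jasmonate in the arginase levels was not tested.

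The 6 libraries left out gave ARGAH2 levels of their own. C24 C had 0 counts, and the limit of 3 counts that a count of 0 allows would be 0.163 CPM there, for counting error only. That limit holds only if low counts were kept. In the libraries lettered C, 0 to 6 loci had a count of 1, against 346 to 581 in all others. Whether low counts were set to 0 there was not tested. Ler C had 157 CPM, C24xLer C 75.9 CPM and LerxC24 C 67.6 CPM. Ler D and Ler E had 90.5 and 13.3 CPM. ARGAH1 in these libraries was 36.3 CPM in C24 C, 35.6 in Ler C, 28.8 in C24xLer C, 27.3 in LerxC24 C, 21.0 in Ler D and 16.5 in Ler E. In letter C the ARGAH1 values were above all of the 28 other libraries, as were the summed root markers, and the part of either library difference in the arginase values was not tested.

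Most of the tested loci between the arginase genes were also lower in C24. By locus number 10 loci of the table lie between the pair, and none is strongly expressed. Their summed level was 0.408 to 0.739 CPM in C24, against 3.95 and 4.46 CPM in Col and 0.955 to 10.8 CPM in Ler. In edgeR's quasi-likelihood test over 29528 genes with Benjamini-Hochberg adjustment, 7 of the 7 loci tested were lower in C24 than in Ler at an adjusted p below 0.05, where 7% of all genes were called lower. Against Col, 7 of 9 tested loci were lower in C24, where 7.67% of all genes were called lower. These loci were counted after their values were seen, and with the libraries lettered C in the fit 3 of 6 were called against Ler. Loci this low passed the count filter through the libraries where they were higher. For loci near 0 in C24 those were libraries of other genotypes. The direction of such calls was thus partly fixed by the filter, and the counts of calls are descriptions only.

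Named examples, picked with these values known, show the size of the difference. The pseudogene AT4G08871, next to ARGAH2, had 0.0232 CPM in C24, against 0.53 CPM in Col and 0.792 CPM in Ler (C24 minus Ler -4.93 in log2). The pseudogene AT4G08880 had 0.234 CPM in C24, against 1.18 CPM in Col and 1.77 CPM in Ler (C24 minus Ler -2.89 in log2). The protein-coding locus AT4G08895, nearest to ARGAH1, had 0 counts summed over the 6 C24 libraries, against 33 in Col and 88 in the 4 Ler libraries. AT4G08875, too low to be tested, had 25 counts summed over the C24 libraries, against 3 in Col and 11 in Ler. The loci AT4G08867, AT4G08868 and AT4G08869 also lie between the pair by position, although their numbers sort before ARGAH2. None of the 3 was called lower in C24. AT4G08869 was higher in C24 than in Col (3.49 in log2), with 112 counts summed over 6 C24 libraries and 6 over 2 Col libraries.

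Across libraries, the counts summed over the 10 loci were 4.29% to 19.1% of the ARGAH2 counts outside C24, and 142% to 1090% in C24. In Ler the sum was 10.8 and 8.81 CPM in A and B and 0.955 and 1.95 CPM in F and G, so it differed between letters as ARGAH2 did. In LerxC24 it was 3.94 and 4.03 CPM in A and B and 0.478 and 0.429 CPM in U1 and U2. These sums come from 21 to 871 counts a library. Whether any of these counts belong to ARGAH2 transcripts was not tested.

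Neighbours with higher levels were looked at separately. Of the 30 loci listed (by locus number, 10 on each side and the 10 between), 8 had a mean of at least 1 CPM. Among these 8, none was called higher and 1 lower in C24 than in Ler, where 7.29% of all genes were called higher and 7% lower. The one called was AT4G08960, with 14.0 CPM in C24 and 19.9 CPM in Ler (-0.51 ± 0.15, edgeR adjusted p = 0.0320), and it lost its call in 7 alternative fits. CRY1, a blue light receptor gene on the far side of ARGAH1, had 191.5 and 230.2 CPM in C24 A and B, against 260 and 342 CPM in Col and 191 and 239 CPM in Ler. It was at -0.15 ± 0.22 in C24 minus Ler, and it was the 1 of the 8 called in C24 minus Col (-0.51 ± 0.15, edgeR adjusted p = 0.0437). In that comparison 5.59% of all genes were called higher and 7.67% lower. A count of 1 in 8 cannot be told apart from the shares over all genes. The largest difference from Ler among the 8 in either direction was -1.15 ± 0.73, in EXO.

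**Figure D3:**
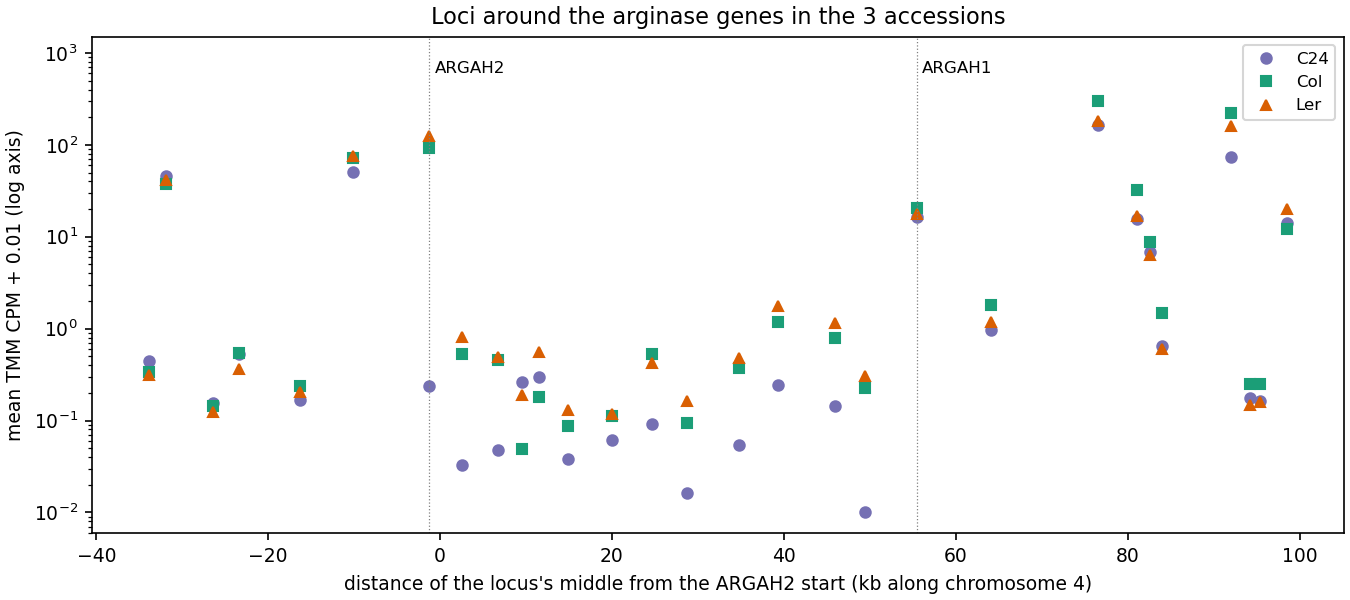
Mean level of ARGAH2, ARGAH1 and the loci around them in C24, Col and Ler, as TMM CPM + 0.01 on a log axis, against the distance of each locus from the ARGAH2 start along chromosome 4. Dotted lines mark the arginase genes. Between them most C24 points lie below those of Col and Ler, while ARGAH1 and most loci outside the interval have a C24 point within reach of the Ler point.

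Genes of arginine metabolism were then tested between the accessions, in lists of 13 genes of arginine synthesis, 8 of arginine and urea breakdown, 6 of proline metabolism and 17 of polyamine metabolism. Of these 44 genes, 5 were higher and 3 lower in C24 than in Ler (edgeR's quasi-likelihood test, adjusted p below 0.05). That is 18.2% of the list, where 14.3% of all 29528 genes tested were called. The median log2 difference was -0.07 over the 44 genes and -0.006 over all genes. With the replicate letter as a block, and so without U1 and U2, which were given no letter, 9 genes were higher and 11 lower. In that fit 32.2% of all genes were called. Without Ler A, 5 genes were called.

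In the synthesis list NAGS1 rose in C24. It encodes N-acetylglutamate synthase, the first enzyme of ornithine and arginine synthesis, and had 44.9 ± 4.39 CPM in C24 (SD, n = 6) and 23.4 ± 1.38 CPM in Ler (SD, n = 4), a difference of 0.94 ± 0.10 (adjusted p = 2.21e-06). OTC and ASS, ornithine transcarbamylase and argininosuccinate synthase, lead from ornithine to arginine and did not pass the test. OTC had 73.3 ± 6.25 CPM in C24 and 76.6 ± 7.60 CPM in Ler, and ASS 56.5 ± 7.17 CPM in C24 and 57.4 ± 5.44 CPM in Ler (SD, n = 6 and 4). No other gene of the synthesis list was called without the block, which added CARA (-0.27), CARB (-0.39) and NAGPR (-0.18), all lower in C24.

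The breakdown list held 4 of the 8 calls between C24 and Ler. OAT, the ornithine aminotransferase that takes up the ornithine arginase makes, fell in C24, with 27.6 ± 3.16 CPM in C24 and 45.5 ± 4.25 CPM in Ler (-0.72 ± 0.10, edgeR adjusted p = 8.68e-05). Urease, which takes up the other product, rose in C24, with 25.2 ± 2.73 CPM in C24 and 14.7 ± 1.49 CPM in Ler (0.77 ± 0.12, edgeR adjusted p = 0.000271). The ranges of C24 and Ler did not overlap for OAT or urease, with 23.3 to 32.2 CPM against 39.8 to 48.8 CPM for OAT and 23.2 to 30.7 CPM against 13.5 to 16.5 CPM for urease. DUR3, a high-affinity urea transporter, rose by 1.2 ± 0.27 (edgeR adjusted p = 0.00487) and URED, a urease accessory protein, by 0.50 (0.0204). The call of DUR3 was lost with the libraries lettered C and with Ler D and Ler E.

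In the proline list P5CDH, which turns the product of ornithine aminotransferase into glutamate, rose by 0.46 in C24 (edgeR adjusted p = 0.00497), a call lost with the libraries lettered C. P5CS1, the stress-responsive enzyme of proline synthesis, ranged from 126 to 1656 CPM in C24 and from 116 to 802 CPM in Ler and was not called without the block. With it, P5CS1 was higher in C24 (0.71 ± 0.12, edgeR adjusted p = 0.000834). In the polyamine list SPDS1, a spermidine synthase, was at -0.47 (edgeR adjusted p = 0.0177) and SAMDC2, an S-adenosylmethionine decarboxylase, at -0.83 (0.0224), both lower in C24. Both calls were lost without Ler A, and that of SAMDC2 also without Ler B and with the libraries lettered C. Without the block the arginine decarboxylase genes did not pass the test. ADC1 had 101.6 ± 15.4 CPM in C24 and 105.7 ± 14.5 CPM in Ler, and ADC2 313 ± 85.8 CPM in C24 and 485 ± 161 CPM in Ler (SD, n = 6 and 4). With the letter as a block ADC2 was lower in C24 (-0.71 ± 0.11, edgeR adjusted p = 0.000388) and ADC1 was still not called (-0.15 ± 0.09).

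Against Col, in letters A and B, 2 of the 44 genes were higher and 5 lower in C24, which is 15.9% of the list where 13.3% of 29777 genes tested were called. The median log2 difference was -0.04 over the list and 0.005 over all genes. NAGS1 was again higher in C24 (1.19 ± 0.12, edgeR adjusted p = 2.3e-05), and so was DUR3 (2.12 ± 0.27, 0.000202). GLB1, the PII protein that regulates arginine synthesis, was lower (-0.55, 0.00738), as were OAT (-0.34, 0.0179), SAMDC3 (-0.49, 0.0156), SPDS1 (-0.45, 0.0011) and CPA (-0.45, 0.0179), an enzyme of putrescine synthesis. The arginine list gave 4 calls without C24 B and 3 without Col A. With the letter as a block 3 genes were higher and 8 lower, where 21.7% of all genes were called.

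Between Col and Ler, 2 of the 44 genes were higher and 6 lower in Col, which is 18.2% of the list where 13.9% of all genes were called, 7.91% higher and 6% lower. The median log2 difference was -0.11 over the list and 0.0047 over all genes. Urease was higher in Col (0.90 ± 0.10, edgeR adjusted p = 7.6e-05), with 27.2 ± 2.23 CPM in Col (SD, n = 2) and 14.7 ± 1.49 CPM in Ler (SD, n = 4). OAT was lower (-0.30, 0.0353), and so was BAC2, a mitochondrial carrier of basic amino acids (-0.66, 0.0153). In the polyamine list PAO4, a polyamine oxidase (-0.95, 0.0389), ADC1 (-0.43, 0.0233), AIH, which acts after arginine decarboxylase (-0.41, 0.00483), and SPDS1 (-0.27, 0.0252) were lower in Col. GLB1 was higher (0.44, 0.0271). Without Ler A, 2 genes of the list and 2212 of all genes were called, against 8 and 4143 with it. The list gave 4 calls without Ler B, and the call of ADC1 was lost without each of the libraries of Col and Ler in turn. Calls of OAT and PAO4 were each lost in 9 alternative fits. With the letter as a block, 8 of the 44 genes were higher and 11 lower in Col, where 23.6% of all genes were called.

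The order of the accessions was not the same for every gene around arginase. Urease was lowest in Ler, where ARGAH2 was highest in letters A and B. In Ler F and G, ARGAH2 (13.6 and 37.8 CPM) was below both Col libraries (102 and 81.8 CPM). The levels of urease in C24 and Col were near each other while those of ARGAH2 were far apart. OAT was lower in C24 than in Col and lower in Col than in Ler, the order of ARGAH2 in letters A and B. Its call in C24 against Col was lost in 3 alternative fits and that of Col against Ler in 9. NAGS1 was higher in C24 than in either other accession. With 3 accessions these orders are descriptions.

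Hybrids were tested against the mid-parent on the log scale, and without a replicate block none of the 44 genes was called in any of the 3 families. The background was 0.769% of genes for C24/Ler, 1.24% for C24/Col and 1.12% for Col/Ler. In edgeR's test 2, 3 and 3 of the 44 genes had an unadjusted p below 0.05 in C24/Ler, C24/Col and Col/Ler, and DESeq2 called 0 in each. With the letter as a block, edgeR called 3, 5 and 2 of the 44 in the same families, all in the polyamine list, where 2.77%, 7.44% and 4.22% of all genes were called. For C24/Ler the blocked fit also leaves out U1 and U2, so its change in calls is not due to the block alone. ADC2, an arginine decarboxylase, was then lower in the hybrids, at -0.62 ± 0.10 in C24/Ler, -0.65 ± 0.12 in C24/Col and -0.61 ± 0.12 in Col/Ler (edgeR adjusted p = 0.00496, 0.00692 and 0.0131). SPMS, a spermine synthase, was at -0.44, -0.38 and -0.42. The others were PAO5 (-0.33 in C24/Ler and -0.36 in C24/Col) and, in C24/Col, SAMDC2 (-0.44) and SPDS2 (0.28). NAGS1 had 30.5 ± 3.09 CPM in C24xLer and 34.3 ± 2.79 CPM in LerxC24 (SD, n = 4 each), between C24 and Ler. Urease had 20.2 ± 2.05 CPM in C24xLer and 21.6 ± 3.84 CPM in LerxC24, and OAT 30.7 ± 3.65 CPM in C24xLer and 34.2 ± 3.27 CPM in LerxC24 (SD, n = 4 each).

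Of the 23 jasmonate genes, none was higher and 3 were lower in C24 than in Ler, 13% of the list where 14.3% of all genes were called. PDF1.2, a defensin gene of the jasmonate and ethylene response, was at -2.41 ± 0.73 (edgeR adjusted p = 0.0333), THI2.1, a thionin gene, at -1.18 (0.0270), and AOC4, an enzyme of jasmonate synthesis, at -0.40 (0.0380). PDF1.2 did not follow ARGAH2 within Ler, with 3.12, 0.488, 14.3 and 5.28 CPM in A, B, F and G. The calls depended on single libraries. No jasmonate gene was called without C24 G, without Ler F or without Ler G, 1 was called without each of C24 A, B, D and E, and 2 were called without C24 F or without Ler A. With letters A and B alone THI2.1 was at 0.013, and with the letter as a block it was not called (-0.95, edgeR adjusted p = 0.0610). The block gave 2 higher and 2 lower of the 23, where 32.2% of all genes were called. It added AOC1 (0.76) and AOC2 (0.63) to PDF1.2 and AOC4.

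Against Col, 6 jasmonate genes were higher and none lower in C24, 26.1% of the list, where 5.59% of all genes were called higher. The median log2 difference was 0.94 over the 23 genes and 0.005 over all genes. The 6 were AOC1 (2.04 ± 0.26, edgeR adjusted p = 0.000207), LOX3 (1.87), OPR3 (1.84), CORI3 (1.49), AOS (1.24) and AOC2 (1.11), all but CORI3 enzymes of jasmonate synthesis. AOC1 and AOC2 are close copies, and their counts are uncertain where reads match both. ARGAH2 was lower in C24 than in Col in the same libraries. The count was 1 without Col B, 2 without C24 B or Col A and 4 without C24 A, Ler A, C24xCol A or C24xCol B. It was 0 with all 28 libraries in one fit, which adds libraries of other letters to C24 but not to Col. With the letter as a block 10 were higher and 2, VSP2 and AOC4, lower, where 21.7% of all genes were called.

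Between Col and Ler, 1 jasmonate gene was higher and 2 were lower in Col, 13% of the list where 13.9% of all genes were called. VSP2 was higher (1.22), and AOC1 (-1.48) and CORI3 (-1.86), a cystine lyase gene that jasmonate induces, were lower. In Col VSP2 had 656 and 490 CPM in A and B, above all Ler libraries, while ARGAH2 was below Ler in the same letters. The count was 2 without Col A. With the letter as a block the count was 6, where 23.6% of all genes were called. Without a block, neither edgeR nor DESeq2 called a jasmonate gene in hybrids against the mid-parent on these libraries, and 2, 4 and 1 had an unadjusted p below 0.05 in edgeR's test for C24/Ler, C24/Col and Col/Ler. With letters A and B alone, 1 was called in C24/Ler. With the letter as a block, LOX2 (-0.98) and CORI3 (-0.86) were called lower in C24/Ler. In C24/Col these were LOX2 (-0.84), CORI3 (-0.31), AOC4 (-0.24) and CLH1 (-0.56), and in Col/Ler ACX1 (-0.27). The blocked fits called 2.77%, 7.44% and 4.22% of all genes in C24/Ler, C24/Col and Col/Ler hybrids.

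**Figure D4:**
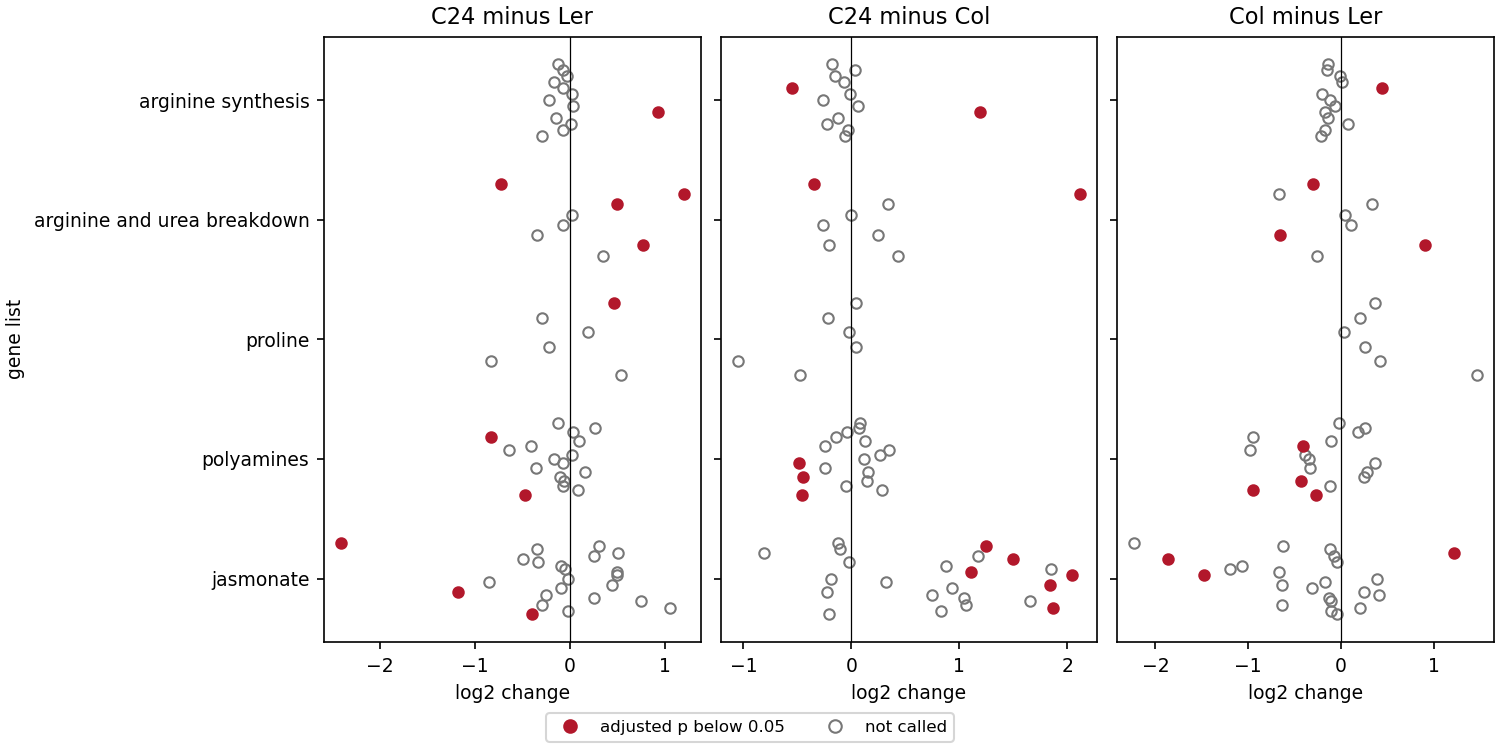
Log2 change of 44 genes of arginine metabolism in 4 lists and of 23 jasmonate genes, in C24 minus Ler, C24 minus Col and Col minus Ler. Filled red points were called at an adjusted p below 0.05 in edgeR's test over all genes, and open points were not. Most genes of arginine metabolism lie near 0, and jasmonate genes lie mostly to the right in C24 minus Col, where their median is 0.94.

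Summed floral markers, 7 genes of floral organs, were 25.7 to 30.5 CPM in Ler, with 6 to 7 of them at or above 1 CPM, against 10.2 to 17.0 CPM in the other genotypes, with 3 to 7. Summed root markers, 5 genes, overlapped between C24 (78.0 to 215 CPM) and Ler (45.5 to 161 CPM). No marker was at a count of 0 in any of the 28 libraries. The part of tissue makeup in the differences from Ler was not tested.

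The genes whose pattern was most like that of each arginase gene were found over the 18 libraries lettered A and B, among 23677 genes with a mean of at least 1 CPM, by Pearson's r of log2(CPM + 0.5). These libraries share genotypes and letters, so r describes likeness only. For ARGAH2 they were AT5G54790 (r = 0.986), the pseudogenes AT2G05110 (0.984) and AT1G44880 (0.982), WRKY19 (0.979) and AT3G29340 (0.977). All 5 were lowest in C24, which a ranking by likeness to ARGAH2 selects for, and lie away from the arginase interval. AT5G54790, for instance, averaged 0.867 CPM in C24, against 13.4 CPM in Col and 16.4 CPM in Ler. For ARGAH1 they were AAP5, an amino acid permease gene that carries basic amino acids (0.932), TIR (0.923), AT3G22060 (0.908), AT4G26860 (0.906) and AT1G76955 (0.903). AAP5 averaged 15.2 CPM in C24, 17.7 CPM in Col and 29.4 CPM in Ler, a wider spread than that of ARGAH1. The arginase genes themselves had an r of 0.398 with each other.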

How the data were processed

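The deposited table holds raw counts per locus, whole numbers without normalization, made by the authors. TAIR10 and FastQC are named per the submitters' processing notes, while for the aligner, the counter and the use of strand the sources used here give nothing. All columns were used, and each was tied to a sample or a group by its name.

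Levels are TMM CPM over 30106 genes (edgeR 4.0.16, R 4.3.3, filterByExpr by genotype). The 6 libraries left out were scaled with all 34. Tests were edgeR's quasi-likelihood tests with Benjamini-Hochberg adjustment, called at an adjusted p below 0.05. Comparisons among C24, Ler and the crosses between them used 18 libraries (29528 genes), and comparisons with Col on the 18 libraries lettered A and B (29777 genes). Calls were also made with DESeq2 1.42.0, other filters and other sets of libraries. The scripts were tested on simulated data. No pair of replicates agreed within sampling noise (lowest chi-square per gene 23.9). The labels name biological replicates, and p-values measure the spread between these pools. For C24 and Ler, deviations of same-letter libraries correlated in all 4 pairs (r 0.597 to 0.686). In these letters each C24 library correlated most with the Ler library of its own letter. Some pairs of different letters also correlated, such as C24 F with Ler G (r = 0.647) and C24 A with Ler B (0.373). The values thus do not settle a pairing by single letters.

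The arginase genes, the gene lists and the left-out libraries were chosen with earlier results of these data known. Named from the lists are OTC, ASS, OAT, urease, ADC1, ADC2, P5CS1, LOX2, VSP2 and PDF1.2 and up to 3 called members per list and comparison with the largest change. URED, SPDS1, AOS, AOC2 and CORI3 were added where they complete a count, and genes called with the letter as a block were named after their values were seen. Neighbours are, by locus number, the 10 loci on each side and those between, with those called against Ler named. Likeness was ranked by r, 5 genes for each arginase gene. Positions and sequences are from NCBI TAIR10.1, whose annotation matched 32565 loci.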

Additional observations from a re-analysis of the deposited data

Results flagged for a closer look

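ARGAH2 was counted clearly in 5 libraries that the comparisons leave out. It was at 157 CPM in Ler C, 75.9 CPM in C24xLer C and 67.6 CPM in LerxC24 C, while C24 C had 0 counts. All 3 levels were above the limit that a count of 0 would allow if low counts were kept. Ler D had 90.5 CPM and Ler E 13.3 CPM, inside the range of the 4 Ler libraries used (13.6 to 252 CPM) for D and just below it for E. The libraries lettered C and Ler D and Ler E stand apart in other measures given above, and the part of that in these values was not tested.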

How the results depend on the processing

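ARGAH2 was lower in C24 in every alternative run, at -9.60 to -8.50 in C24 minus Ler and -8.65 to -7.35 in C24 minus Col, and Col minus Ler was -1.46 to -0.44. The near-0 changes of ARGAH1 and the reciprocal differences of ARGAH2 took both signs over the alternatives, as did the hybrids against the mid-parent, apart from ARGAH1 in C24 minus Col and in the C24/Col hybrids and both genes in ColxLer minus LerxCol. Over results that answer a comparison, 758 alternative values stayed within a set margin of the main value and 76 moved. For a log2 change the margin was the SD between libraries, and a change of sign within it was not counted as a move. Low counts limit ARGAH2 in C24, with 7 to 40 counts a library, and 2 libraries a genotype limit every comparison with Col. The cause of the moves below was not tested.

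With the replicate letter as a block, calls in the arginine lists were 20 in C24 minus Ler, 11 in C24 minus Col, 19 in Col minus Ler, 3 in C24/Ler hybrids, 5 in C24/Col hybrids and 2 in Col/Ler hybrids. The blocked fit of C24, Ler and their hybrids also leaves out LerxC24 U1 and U2, which were given no letter. Blocked calls in the jasmonate list were 12 in C24 minus Col, 6 in Col minus Ler, and 2, 4 and 1 in the C24/Ler, C24/Col and Col/Ler hybrids. Blocked calls over all genes were 9609 in C24 minus Ler, 6460 in C24 minus Col, 7020 in Col minus Ler, and 826, 2214 and 1258 in the hybrids in the same order. In C24, Ler and their hybrids 14 of 16 same-letter pairs correlated above 0.1, as did 26 of 76 pairs of different letters (highest r 0.647). In the fit of letters A and B all 72 same-letter pairs did (r 0.28 to 0.745, median 0.56). Each genotype there has only 2 libraries, whose deviations mirror each other, so the A pair and the B pair of 2 genotypes share 1 value. The mirroring does not fix the sign of r between genotypes.

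DESeq2 called 446, 786 and 625 of all genes in the C24/Ler, C24/Col and Col/Ler hybrids, 9 jasmonate genes in C24 minus Col, and 12 arginine and 5 jasmonate genes in Col minus Ler. With all 28 libraries in one fit, C24 minus Col was -0.33 for ARGAH1 and -8.65 for ARGAH2 with 0 jasmonate calls, and Col minus Ler was 0.21 for ARGAH1 and -0.44 for ARGAH2 with 5 arginine, 1 jasmonate and 2703 calls over all genes. In that fit the Col/Ler hybrids were at 0.16 for ARGAH1 and 0.11 for ARGAH2, with 206 calls over all genes, and the C24/Ler hybrids had 354. The fit adds libraries of other letters to Ler and C24 but not to Col.

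With the libraries lettered C, C24 minus Ler had 4 arginine, 1 jasmonate and 1478 calls over all genes, and the C24/Ler hybrids 95. With letters A and B alone, C24 minus Ler had 12 arginine and 1 jasmonate calls and the C24/Ler hybrids 1 jasmonate call, and THI2.1 was at 0.013, opposite in sign. Against the mean of the parents' CPM, ARGAH2 was at -0.84 in C24/Ler and -0.026 in C24/Col hybrids.

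Leaving out 1 library at a time gave 5 to 9 arginine and 0 to 3 jasmonate calls in C24 minus Ler, 3 to 8 and 1 to 8 in C24 minus Col, and 2 to 8 and 2 to 4 in Col minus Ler. ARGAH2 in C24 minus Col was then -8.43 to -7.35. Over all genes there were 2212 to 4105 calls in Col minus Ler, 236 to 666 in C24/Col hybrids (lowest without C24xCol B or C24 A, highest without Col B) and 187 to 356 in Col/Ler hybrids (lowest without Ler A). A library left alone in its genotype was assumed to vary like the others. Of the 31 named genes and comparisons tested, 103 alternative fits lost a call, most often LOX3 in C24 minus Col (12 fits). NAGS1 and urease kept theirs in all fits run, as did OAT in C24 minus Ler and DUR3 in C24 minus Col.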
